A study of Homo sapiens with 4 samples.

Results

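The 8 long non-coding RNAs MALAT1, NEAT1, KCNQ1OT1, OIP5-AS1, NORAD, TUG1, PVT1 and HULC were followed through an RNA immunoprecipitation experiment. They were chosen by name, all 8 were found in the deposited table of 56303 features, and all 8 were among the 19210 features compared, those that reached 10 counts in 2 or more of the 4 libraries. Huh7, an established hepatocellular carcinoma line, carried a control hairpin (shControl) or a hairpin against RBM39 (shRBM39), the latter delivered on a plasmid. RBM39 is an RNA-binding splicing factor, and the precipitation used an antibody against it. Each culture gave 1 input library and 1 library of precipitated RNA (IP), so there were 4 groups of 1 library each and no precipitate of a control antibody. Where 4 values stand in a row below, they are those of the input and IP of shControl cells and then the input and IP of shRBM39 cells. A ratio of IP over input is therefore a recovery in the antibody fraction, and recovery that does not depend on RBM39 cannot be told apart from it.

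Long non-coding RNAs act as RNA, and where they lie in the cell is part of how they work. MALAT1 gathers in nuclear speckles, the nuclear bodies rich in splicing factors, NEAT1 is the scaffold of paraspeckles, and KCNQ1OT1 stays at the chromatin of the imprinted locus from which it silences neighbouring genes. NORAD binds RNA-binding proteins and holds them in the cytoplasm, and HULC was described as an RNA of liver cancer cells, and both RNAs are known mainly from the cytoplasm. OIP5-AS1, also called cyrano, binds the microRNA miR-7, TUG1 is found in both compartments, and PVT1 is a spliced RNA made next to MYC. The comparison set the 3 nuclear RNAs MALAT1, NEAT1 and KCNQ1OT1 against the 2 cytoplasmic RNAs NORAD and HULC.

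All 8 members were lower together in the input labelled shRBM39, and the promoter windows of 3 of them are printed to show what their start sites hold; the counts themselves say nothing of promoter activity. The windows run from 250 bases before to 50 after a start site of RefSeq on GRCh38.p14, and 4 of the 8 RNAs had such a window. That of OIP5-AS1 also belongs to an inner start, since the annotated span of the gene begins upstream of it, at 41282697. The window of TUG1, which RefSeq lists as protein coding, is not printed. Capitals mark matches, on either strand, to the TATA box searched as TATAAA, to the CCAAT box, to the GC box searched as GGGCGG, to an ETS factor site searched as CCGGAA and to the E-box searched as CACGTG. The capitals of different motifs do not overlap in the windows printed.
MALAT1, inner start, chr11:65498795-65499094, plus strand: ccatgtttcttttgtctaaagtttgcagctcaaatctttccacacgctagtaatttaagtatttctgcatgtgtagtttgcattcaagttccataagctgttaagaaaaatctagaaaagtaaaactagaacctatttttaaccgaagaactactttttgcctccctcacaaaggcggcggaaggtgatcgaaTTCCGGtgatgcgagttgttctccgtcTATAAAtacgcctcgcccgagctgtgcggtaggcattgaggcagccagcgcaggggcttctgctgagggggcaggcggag
OIP5-AS1, chr15:41283740-41284039, plus strand: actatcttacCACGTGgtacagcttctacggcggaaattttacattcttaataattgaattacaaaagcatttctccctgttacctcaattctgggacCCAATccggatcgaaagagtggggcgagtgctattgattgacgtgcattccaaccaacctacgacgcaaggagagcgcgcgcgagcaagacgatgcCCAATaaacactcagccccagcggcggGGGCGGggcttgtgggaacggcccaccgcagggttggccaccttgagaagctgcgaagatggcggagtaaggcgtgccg
NORAD, chr20:36050911-36051210, minus strand: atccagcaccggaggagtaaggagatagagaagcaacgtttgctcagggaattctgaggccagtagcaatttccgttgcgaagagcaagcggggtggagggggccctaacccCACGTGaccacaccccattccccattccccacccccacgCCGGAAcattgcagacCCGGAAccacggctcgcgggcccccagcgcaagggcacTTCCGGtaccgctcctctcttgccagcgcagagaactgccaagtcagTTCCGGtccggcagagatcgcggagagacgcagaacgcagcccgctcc
The inner MALAT1 window holds a TATA box that begins 30 bases before the start and a match to the ETS letters, and the window of an outer MALAT1 start holds 5 GC boxes. NORAD has 4 matches to the ETS letters, OIP5-AS1 has 2 CCAAT boxes and a GC box, and TUG1 has 2 CCAAT boxes and 4 GC boxes. The E-box letters are in the windows of OIP5-AS1, NORAD and TUG1 and in 7.26% of the 35116 windows of this length. The shares of all windows with a match were 11.5% for the TATA box, 34.6% for the CCAAT box, 45.0% for the GC box and 17.2% for the ETS letters.

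The 4 libraries held 20858382, 41387762, 22249581 and 45812488 counts in all. RBM39 itself stood at 404 and 370 CPM (counts per 1000000 of the scaled library) in the inputs labelled shControl and shRBM39, or 0.917 times, and at 1036 and 2221 CPM in their IPs, where the library labelled shRBM39 was the higher (log2 1.10, 1.08 to 1.12). The input thus showed a small loss for a knockdown and the IP went against the label, so every direction below is that of the labels. The 8 hepatocyte markers checked summed to between 5268 and 13368 CPM, lowest in the shRBM39 IP, while 9 markers of leukocytes, endothelium and fibroblasts summed to between 7.83 and 11.4 CPM. Mitochondrial, RN7SK and RN7SL transcripts made up 9.74% and 6.47% of the shControl and shRBM39 input counts but 0.46% and 0.687% of the IP counts, and the part of this gap in the ratios below was tested only by scaling without them. CPM values were scaled by the trimmed mean of M-values (TMM). With 1 library per group there is no replicate check of any difference between 2 libraries, the ranges in brackets are 95% intervals of counting error only, and a call of lower or higher needs both a 2-fold difference, a log2 value of 1 or more in size, and an interval without equality.

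MALAT1 (chromosome 11, 65497738 to 65506516) was the most counted member in every library. Its 81404, 86490, 55581 and 76186 counts scale to 3778, 1914, 2555 and 1841 CPM. Both IPs lay below both inputs, and the shControl input stood highest. The log2 ratio of IP over input was -0.98 (-0.99 to -0.97) in shControl cells and -0.47 (-0.49 to -0.46) in shRBM39 cells, so MALAT1 was 1.97 times and 1.39 times lower in the IP, short of the 2-fold needed for a call.

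NEAT1 (chromosome 11, 65422798 to 65445540) had 3810 and 3780 counts in the shControl input and IP and 2403 and 2244 in the shRBM39 input and IP. These are 177, 83.7, 110 and 54.2 CPM. The IP was again the lower library of each pair, and the shRBM39 IP was the lowest of the 4. The ratio was nearly the same in both cultures, -1.08 (-1.14 to -1.01) and -1.03 (-1.11 to -0.94), and was called lower in each. Both calls rest on the 2-fold limit: with no filter beyond 1 count the ratios were -0.99 and -0.91, and with libraries scaled to total counts the shControl ratio fell just short of the limit.

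KCNQ1OT1 (chromosome 11, 2608328 to 2699994) had 1931, 1708, 1688 and 1648 counts, or 89.6, 37.8, 77.6 and 39.8 CPM. Its 2 inputs stood close together, as did its 2 IPs. Its ratio was -1.25 (-1.34 to -1.15) in shControl cells, a call, and -0.96 (-1.06 to -0.86) in shRBM39 cells, just short of one, which it passed with total counts (-1.08).

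Of the cytoplasmic RNAs, NORAD (chromosome 20, 36045618 to 36050960) had 20150, 19168, 14196 and 15846 counts, or 935, 424, 653 and 383 CPM. Its order of libraries was that of MALAT1, with the shControl input on top and both IPs at the bottom. IP over input was -1.14 (-1.17 to -1.11) in shControl cells and -0.77 (-0.80 to -0.74) in shRBM39 cells. HULC (chromosome 6, 8652269 to 8653856), with 128, 92, 93 and 121 counts or 5.94, 2.04, 4.28 and 2.92 CPM, was a low transcript in these cells. Its ratio was -1.54 (-1.95 to -1.15) in shControl cells and -0.55 (-0.95 to -0.14) in shRBM39 cells.

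OIP5-AS1 (chromosome 15, 41282697 to 41313338) had the lowest ratio among the 7 members with over 100 summed counts, in both cultures. It had 2290, 1192, 1612 and 1040 counts, or 106, 26.4, 74.1 and 25.1 CPM. The 2 IPs were nearly level and both inputs lay far above them. Against its input the RNA was 4.03 times lower in the shControl IP (log2 -2.01, -2.11 to -1.91) and 2.95 times lower in the shRBM39 IP (log2 -1.56, -1.67 to -1.45). Of all compared features, 2.67% and 3.62% had a lower ratio.

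TUG1 (chromosome 22, 30969265 to 30979395), which RefSeq now lists as protein coding, had 1275, 1621, 1045 and 1250 counts or 59.2, 35.9, 48.0 and 30.2 CPM. Its ratios of -0.72 (-0.83 to -0.61) and -0.67 (-0.79 to -0.55) barely differed between the cultures and were not called. PVT1 (chromosome 8, 127794524 to 128101256) rested on 26, 9, 12 and 19 counts, or 1.21, 0.199, 0.552 and 0.459 CPM, and is not an abundant RNA here. Its ratio was -2.55 (-3.88 to -1.46) in shControl cells and -0.29 (-1.38 to 0.91) in shRBM39 cells, where no difference was detectable at this depth.

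**Figure D1:**
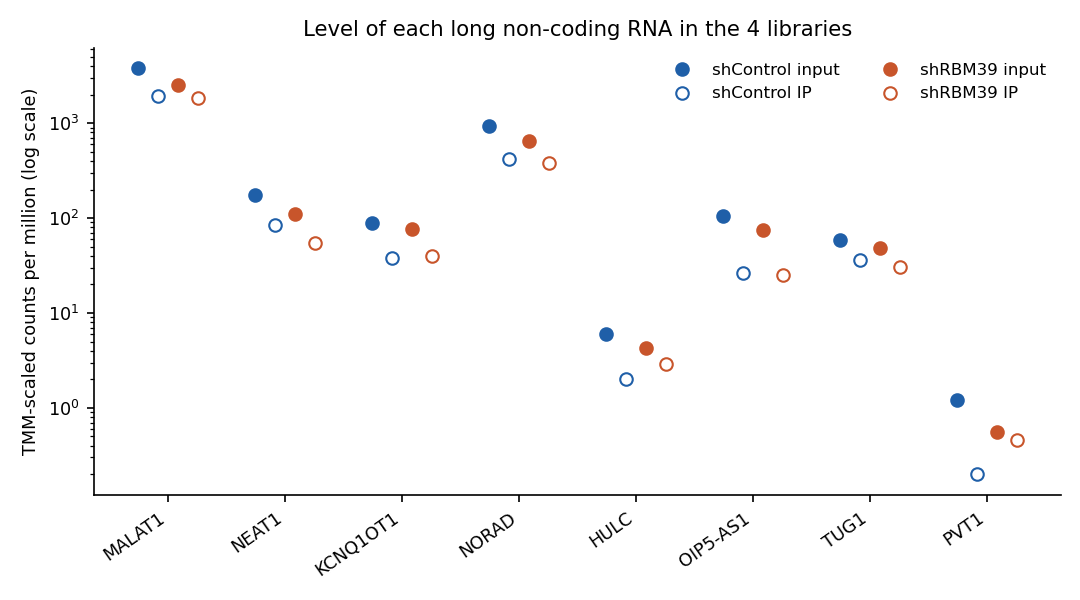
TMM-scaled CPM of each RNA (log axis) in the 4 libraries, 1 point per library, with filled points for input and open points for IP. The 8 RNAs span from 0.199 CPM for PVT1 to 3778 CPM for MALAT1, and every open point lies below the filled point of its culture.

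Levels of different RNAs can be compared only per length, and this was done for the 4 RNAs known as mostly unspliced, whose annotated span stands for the transcript. In the shControl input MALAT1 stood at 430 CPM per kb of span, NORAD at 175, NEAT1 at 7.77 and KCNQ1OT1 at 0.978. The order was the same in the remaining 3 libraries, taken as above, with MALAT1 at 218, 291 and 210 CPM per kb, NORAD at 79.4, 122 and 71.7, NEAT1 at 3.68, 4.86 and 2.38, and KCNQ1OT1 at 0.412, 0.847 and 0.434. NEAT1 has a short and a long form that start together, so its mean over the long span says nothing of each form. Together the 8 RNAs took 0.532%, 0.276%, 0.344% and 0.215% of the counts of the 4 libraries, and MALAT1 made up between 72.5% and 77.5% of these.

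Set side by side, the 8 RNAs stood lower in the precipitate than in its input in both cultures. In shControl cells their median log2 ratio was -1.19, against -0.01 over all compared features, and 6 of 8 were called lower, where 11.3% of all features were. In shRBM39 cells the median was -0.72, against 0.02, with 2 of 8 called lower (NEAT1 and OIP5-AS1), where 9.00% of all features were, and these 2 were the ones called in both cultures. None was called higher in either culture, against 7.70% and 5.29% of all features. With no minimum size, the interval lay below 0 for 8 and 7 members, the exception being PVT1 in shRBM39 cells, and for 33.1% and 30.0% of all features.

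Long non-coding RNAs as a class stood lower than mRNAs but less far than these members. The 750 compared features that RefSeq lists as lncRNA had a median of -0.28 in shControl and -0.21 in shRBM39 cells, against 0.08 and 0.07 for 12886 protein-coding features. Among the 187 lncRNA features with at least 1000 summed counts, OIP5-AS1 had the 4th lowest ratio in shControl cells, KCNQ1OT1 the 13th, NORAD the 17th, NEAT1 the 21st and MALAT1 the 26th. In shRBM39 cells their places were 2nd, 13th, 23rd, 12th and 45th.

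**Figure D2:**
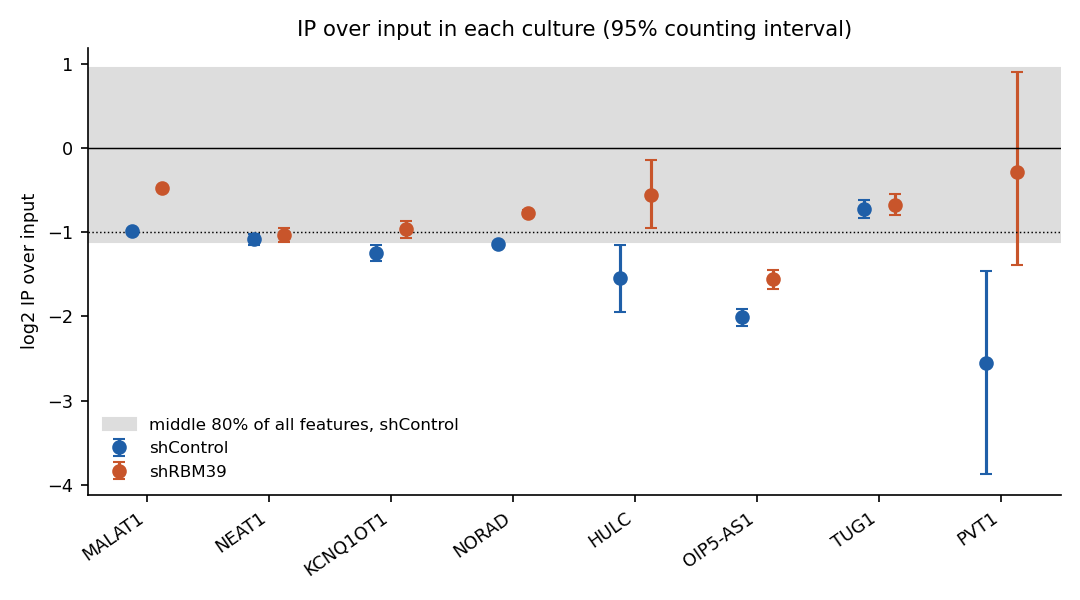
Log2 IP over input for each RNA in shControl (blue) and shRBM39 (orange) cells, with 95% counting intervals, narrower than the point for MALAT1 and NORAD. The grey band spans the 10th to 90th percentile of all features in shControl cells, -1.11 to 0.95, and the dotted line marks 2-fold lower; all 16 points lie below 0.

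The one contrast with more than 1 library on each side set both IPs against both inputs, with culture as a term, by edgeR's quasi-likelihood test. It called 7 of 8 members lower in the IP at a Benjamini-Hochberg adjusted p under 0.05, where 17.6% of all features were lower and 19.2% higher. Of the 187 well counted lncRNA features, 29.4% were lower. OIP5-AS1 had the largest change of those called, log2 -1.79 (edgeR adjusted p = 1.25e-07), lower in 2 of 2 cultures. KCNQ1OT1 fell by 1.10 (edgeR adjusted p = 1.81e-05), NEAT1 by 1.05 (3.47e-05), HULC by 1.05 (0.0053), NORAD by 0.95 (0.00084), MALAT1 by 0.73 (0.023) and TUG1 by 0.70 (0.00089) on the log2 scale, each lower in 2 of 2 cultures. PVT1, at -1.41, missed the threshold (edgeR adjusted p = 0.089). DESeq2 gave no adjusted p for PVT1 and called the other 7 lower. It called lower 12.9% of the 16230 features to which it gave an adjusted p. The 2 cultures carried different hairpins, so they are not repeats of the same condition, and the labels do not say whether they were grown independently. The fit has 1 residual degree of freedom, which a change of recovery between the cultures enters. Without the culture term edgeR called 0 members and 0 of the 19210 features, with 6 members and 4143 features at an unadjusted p under 0.05.

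The 3 nuclear and the 2 cytoplasmic members did not separate by their ratio. In shControl cells the nuclear RNAs lay between -1.25 and -0.98 and the cytoplasmic ones between -1.54 and -1.14, and in shRBM39 cells between -1.03 and -0.47 and between -0.77 and -0.55, so the groups overlapped in both. The difference between 2 RNAs of the same libraries does not depend on library scaling. In shControl cells, of the 6 pairs of a nuclear with a cytoplasmic RNA, the nuclear RNA was higher beyond counting error in 3, lower in 1 and within it in 2. In shRBM39 cells it was higher in 1, lower in 4 and within it in 1.

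MALAT1 kept a higher ratio than NORAD in both cultures, by 0.16 (0.13 to 0.19) and 0.30 (0.26 to 0.33). KCNQ1OT1 was lower than NORAD in both, by -0.10 (-0.20 to -0.01) and -0.19 (-0.30 to -0.09). NEAT1 and NORAD were not distinguishable in shControl cells, at 0.06 (-0.01 to 0.13), and NEAT1 was lower by -0.26 (-0.35 to -0.17) in shRBM39 cells. Against HULC, NEAT1 turned from 0.46 (0.07 to 0.85) in shControl to -0.48 (-0.87 to -0.08) in shRBM39 cells, where HULC rests on about 100 counts per library. With counts divided by 2, since both mates of a read pair may have been counted, 5 of the 12 differences still excluded 0. These were MALAT1 against NORAD in both cultures, MALAT1 against HULC in shControl cells, and NEAT1 and KCNQ1OT1 against NORAD in shRBM39 cells.

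**Figure D3:**
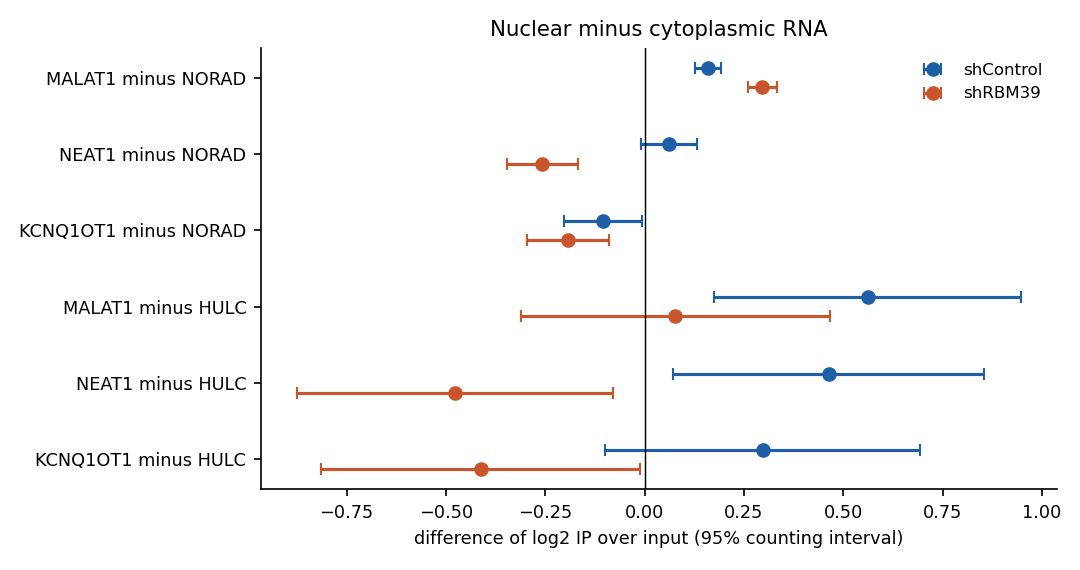
Log2 IP over input of each nuclear RNA minus that of each cytoplasmic RNA, in shControl (blue) and shRBM39 (orange) cells, with 95% counting intervals. Points fall on both sides of 0, from -0.48 to 0.56, and MALAT1 minus NORAD is the narrowest and lies above 0 in both cultures.

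In the input RNA every member was less abundant in the cells labelled shRBM39. Log2 shRBM39 over shControl was -0.68 (-0.75 to -0.60) for NEAT1, -0.56 (-0.58 to -0.55) for MALAT1, -0.52 (-0.61 to -0.43) for OIP5-AS1, -0.52 (-0.55 to -0.49) for NORAD, -0.47 (-0.88 to -0.08) for HULC, -0.30 (-0.42 to -0.18) for TUG1 and -0.21 (-0.30 to -0.11) for KCNQ1OT1. PVT1 stood at -1.10 (-2.25 to -0.09) and was the 1 member called lower by the 2-fold rule, where 5.74% of all features were, on 26 against 12 counts. The interval excluded equality for 8 of 8 members and for 26.7% of all features in that direction; deeply counted RNAs pass this rule at smaller sizes. The median of the members was -0.52 and that of all features -0.01. In linear terms NEAT1 stood at 0.625 times its shControl level, MALAT1 at 0.676 times and KCNQ1OT1 at 0.866 times. The nuclear members spanned -0.68 to -0.21 and enclosed both cytoplasmic members, so among these few RNAs this change did not follow the compartment either. The further lists below had different medians, -0.08 for nuclear and -0.37 for cytoplasmic RNAs. In a bulk culture, fewer cells that hold an RNA and less of it per cell cannot be told apart.

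The difference between the cultures was smaller in size in the IPs than in the inputs for 6 of the 8, all but HULC and PVT1. Which members these are depends on the scaling. With total counts the exceptions were NEAT1 (-0.90 in the IPs and -0.76 in the inputs) and TUG1 (-0.52 and -0.38). Log2 shRBM39 over shControl in the IPs was -0.06 (-0.07 to -0.04) for MALAT1, -0.15 (-0.18 to -0.12) for NORAD, -0.07 (-0.19 to 0.05) for OIP5-AS1, 0.07 (-0.02 to 0.17) for KCNQ1OT1 and -0.25 (-0.36 to -0.14) for TUG1. NEAT1 was lower in the IP as it was in the input, at -0.63 (-0.70 to -0.55). HULC stood at 0.52 (0.12 to 0.93), which included 0 with counts divided by 2 (-0.06 to 1.11), and PVT1 stood at 1.16 (-0.01 to 2.53). The interval lay below 0 for 4 members and above 0 for 1, where 31.3% and 31.5% of all features did so. None was called, against 5.27% of all features lower and 6.61% higher. With total counts the median of all features in this comparison moved to -0.28, KCNQ1OT1 turned to -0.20 and HULC stood at 0.25 (-0.15 to 0.66). The interval then lay below 0 for 6 members and above 0 for none, where 50.5% and 17.8% of all features did so.

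The change of recovery between cultures is the difference of these 2 values, so a lower input enters it directly. It was 0.51 (0.49 to 0.53) for MALAT1, 0.45 (0.30 to 0.60) for OIP5-AS1, 0.37 (0.33 to 0.41) for NORAD, 0.28 (0.15 to 0.42) for KCNQ1OT1 and 0.99 (0.44 to 1.54) for HULC. NEAT1, at 0.05 (-0.05 to 0.16), and TUG1, at 0.05 (-0.11 to 0.21), showed no difference beyond counting error, and both turned to -0.14 with libraries scaled to total counts and to just below 0 with a TMM that leaves out the mitochondrial, RN7SK and RN7SL transcripts. PVT1 was the 1 member called higher, 2.26 (0.78 to 3.74), where 4.39% of all features were. Beyond counting error 6 of 8 were higher, against 19.7% of all features, and the members' median of 0.41 stood beside 0.00 for all features. With total counts the median of all features moved to -0.20, and the values shrank to 0.31 for MALAT1, 0.26 for OIP5-AS1, 0.18 for NORAD and 0.09 (-0.05 to 0.22) for KCNQ1OT1. Under that scaling 5 members were higher beyond counting error, against 9.86% of all features. NEAT1 was lower (-0.25 to -0.04), as were 36.5% of all features, and its value of -0.14 lay above the median of all features. MALAT1 and NEAT1, both nuclear, thus differed in this value by more than their counting intervals.

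**Figure D4:**
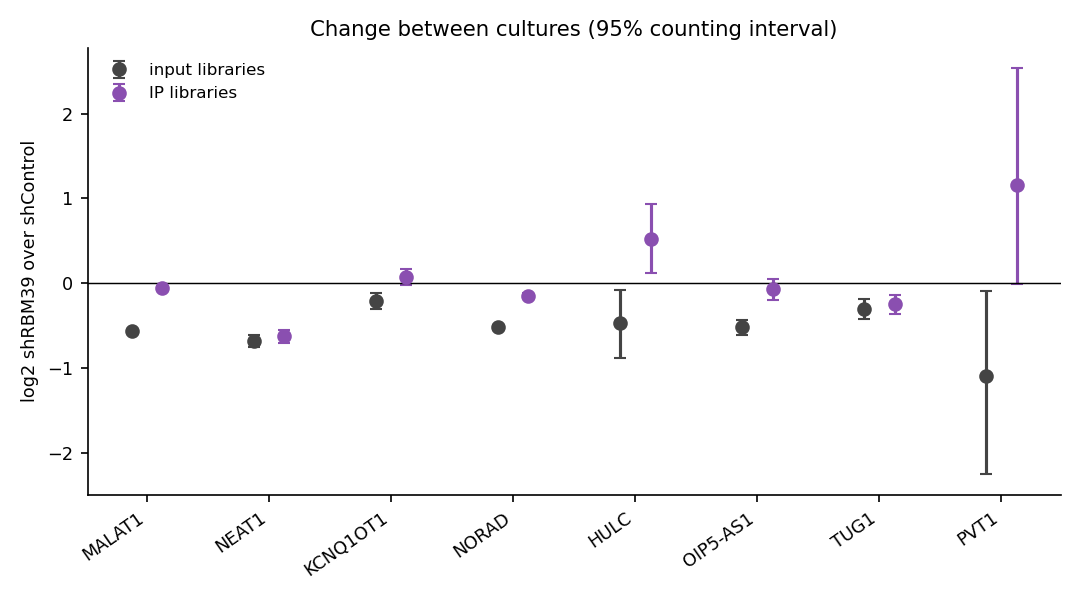
Log2 shRBM39 over shControl for each RNA in the input (dark grey) and IP libraries (purple), with 95% counting intervals. All 8 input points lie below 0, from -1.10 to -0.21, while the IP points lie on both sides, from -0.63 to 1.16.

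Other long non-coding RNAs were read beside the members. Of 12 further RNAs known as nuclear, 7 were compared, with a median IP over input of -1.30 in shControl and -1.09 in shRBM39 cells and 4 called lower in each, against 11.3% and 9.00% of all features. FIRRE, a nuclear RNA of the X chromosome, stood at -1.89 and -1.52, and JPX at -1.30 and -1.09. The interval lay below 0 for 6 and 4 of the 7, and that of HOTAIR (-0.12 and -0.33) included 0 in both cultures. Of 12 further symbols listed for RNAs known as cytoplasmic, several of them hosts of small nucleolar RNAs, 8 were compared. Their medians were -0.86 and -0.48, with 3 and 2 called lower. SNHG6 was the lowest of these, at -2.02 and -1.36, and DANCR stood at -1.21 and -1.09. In shRBM39 cells 3 of the 8 (SNHG1, SNHG8 and LINC00152) lay above 0, with intervals that included 0. In the edgeR test over both cultures 4 of the 7 and 5 of the 8 were lower at an adjusted p under 0.05, and none was higher, where 17.6% of all features were lower and 19.2% higher. In the input, the interval lay below 0 for 2 of the 7 nuclear RNAs (median -0.08) and for 7 of the 8 cytoplasmic ones (median -0.37), beside 26.7% of all features, a share that the 2 of 7 come near. The medians of these lists thus differed, unlike the members, in the input and in IP over input. Their single values overlapped, from -0.50 to 0.08 and from -0.99 to -0.04 in the input, and a difference by compartment was not tested.

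The mRNAs of proteins that share the bodies of MALAT1 and NEAT1 stood on the other side. Of 14 paraspeckle protein mRNAs, 13 were higher in the shRBM39 input beyond counting error, with a median log2 change of 0.47. By that rule 28.5% of all features were higher, and 4373 of the 10310 features with at least 1000 summed counts. NONO, at 1.36, was among those called higher, as were 5.10% of all features, and SFPQ, an essential paraspeckle protein, stood at 0.71. NONO had 163, 169, 418 and 629 CPM. Both shRBM39 libraries of NONO lay above both shControl libraries, and those of NEAT1 lay lower within each fraction. Of 20 nuclear speckle protein mRNAs, 19 were higher in that input (median 0.49), with BCLAF1 (1.26) and THRAP3 (1.10) called.

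In shControl cells the medians of their IP over input were near that of all features, 0.12 for paraspeckle and 0.10 for nuclear speckle mRNAs. Single values ran from -0.73 to 0.57 and from -0.998 to 0.82. In shRBM39 cells the medians were 0.37 and 0.33, against 0.02 for all features. There the interval lay above 0 for 13 of 14 and 15 of 20, and below 0 for 1 and 5. It lay above 0 for 4905 of the 10310 features with at least 1000 summed counts, whose median was 0.10. No mRNA of either list was called in either direction in either culture. The change of recovery between cultures was called higher for SFPQ, at 1.07. The edgeR test called 3 of the 14 higher, HNRNPK and EWSR1 among them, and 0 lower, and 6 of the 20 higher and 2 lower (SRRM1 and SRPK1), shares near the 19.2% of all features, and the 29.7% of features with at least 1000 summed counts, that were higher. Of the partners of NORAD, PUM2 stood at -0.36 and -0.34, while RBMX (0.67 and 0.67) and KHDRBS1 (0.72 and 0.86) were higher in the IP by the edgeR test (adjusted p = 0.0059 and 0.0015). Of the RNA-binding proteins tied to OIP5-AS1 and HULC, ELAVL1 stood at 0.65 and 0.59 and IGF2BP1 at 0.57 and 0.45, both higher by the edgeR test (adjusted p = 0.003 and 0.038), and IGF2BP2 (-0.15 and -0.12) and IGF2BP3 (-0.11 and 0.08) did not pass it.

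**Figure D5:**
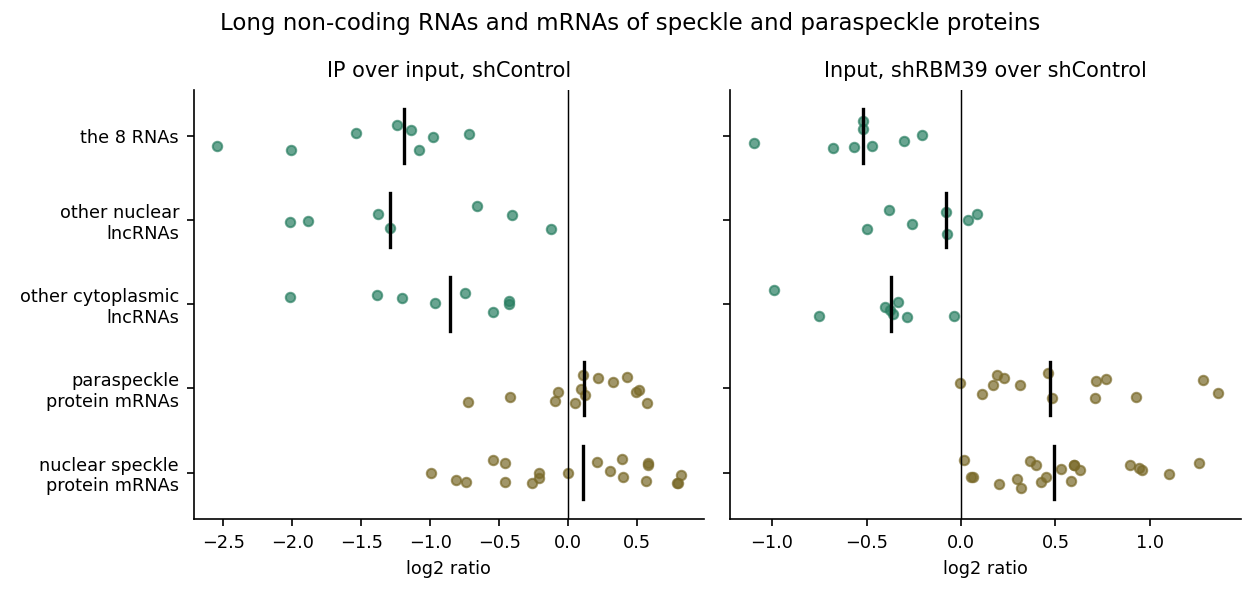
Log2 IP over input in shControl cells (left) and log2 shRBM39 over shControl in the input (right), 1 point per RNA, with bars at the medians; the vertical spread of points has no meaning. The 8 RNAs have medians of -1.19 and -0.52, and the mRNAs of paraspeckle and nuclear speckle proteins have medians of 0.12 and 0.10 on the left and 0.47 and 0.49 on the right.

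For IP over input, CHP1 stood on the same side as its member and the other 3 compared neighbours did not. CHP1, a calcineurin B homologue that lies 810 bases from OIP5-AS1, stood at -0.74 (-0.82 to -0.66) and -0.24 (-0.33 to -0.15) for IP over input and at -0.42 in the input change. KCNQ1, the potassium channel gene inside which KCNQ1OT1 lies on the other strand, had 3, 30, 0 and 18 counts. Its log2 ratio in shControl cells was 2.06 (0.57 to 4.61), against -1.25 for KCNQ1OT1. OIP5, which overlaps OIP5-AS1, had 127, 333, 110 and 236 counts and ratios of 0.32 (0.02 to 0.63) and 0.17 (-0.16 to 0.51), against -2.01 and -1.56. Its input change of -0.22 (-0.60 to 0.16) lay below 0 as that of OIP5-AS1 did, within counting error, and that of KCNQ1 rests on 3 counts against 0. MORC2, a chromatin ATPase gene that lies 491 bases from TUG1, had 1208, 4029, 2415 and 7272 counts, ratios of 0.67 and 0.66, and an input change of 0.99 (0.89 to 1.09) where TUG1 stood at -0.30. The strand setting of the counting is not given in the sources used here, so reads of overlapping genes may be shared.

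By Euclidean distance of centred log2 values over the 4 libraries, the features most like each member were mostly mRNAs. Among 14483 features with at least 200 summed counts, TXNL4A, a spliceosome component, and CEP85L were nearest to MALAT1 (distances 0.048 and 0.051), and TTBK2 and CACUL1 to NORAD (0.013 and 0.044). NXT2 and MZT1 were nearest to NEAT1 (0.067 and 0.074), STX2 and SLC41A2 to KCNQ1OT1 (0.050 and 0.061), and CKMT2-AS1 and MET to TUG1 (0.030 and 0.036). OIP5-AS1 was nearest to the clone-named AC093642.5 (0.087) and to FIRRE (0.096), and HULC to the clone-named RP11-379K17.12 (0.042) and the small nucleolar RNA SNORA67 (0.044). PVT1, with 66 summed counts, was not ranked. Among the members themselves MALAT1 lay nearest to TUG1 (0.23) and NORAD (0.24), closer than to NEAT1 (0.52), and OIP5-AS1 lay at least 0.72 from every other. With 4 libraries such closeness is a description and many features share it.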

How the data were processed

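The deposited values are raw counts per gene symbol, left unnormalized by the authors. Tools named in the submitters' processing notes are HISAT2 2.0.4, StringTie 1.3.4d and cutadapt 1.9, with build hg38. Which program made the counts, with which strand setting and annotation, is not given in the sources used here. Of counts from 3 to 6, 71.4% to 75.6% were even, so both mates of a pair may have been counted and counting intervals may be too narrow; reads without molecular identifiers are also not independent molecules. Features reaching 10 counts in 2 or more libraries were kept and scaled by TMM (edgeR 4.0.16, R 4.3.3). Log2 ratios add 0.5 to each count; intervals are exact conditional (Clopper-Pearson) 95% intervals, and those of differences of ratios come from the counting standard error. IP was tested against input with edgeR's quasi-likelihood test, with culture as a term and Benjamini-Hochberg adjustment over all kept features; DESeq2 1.42.0 was an alternative. Both steps were tested on simulated data. Members and lists were chosen with earlier results of these data known; named are the 8 members, features overlapping or within 5000 bases of one, up to 4 per list by size of ratio, and the 2 nearest features of each member. List members beyond that rule were named after their values were seen, and some list members are not reported here. Coordinates and windows come from RefSeq's GRCh38.p14 annotation, the same assembly as hg38. No column of another sample was present.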

Additional observations from a re-analysis of the deposited data

How the results depend on the processing

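Signs of IP over input and of the input change held for every member kept, under each setting tried. The settings were scaling to total counts, DESeq2 size factors, TMM without mitochondrial, RN7SK and RN7SL RNAs, 2 other filters, 2 added to each count and halved counts. All 8 members were kept except with at least 10 counts in each of the 4 libraries, which left 7. Of the difference between cultures, NEAT1 and TUG1 changed sign with total counts (both -0.14) and with TMM without those RNAs (-0.0035 and -0.0041). Total counts gave 5 in place of 6 calls in the shControl IP, where NEAT1 was lost, and 3 in place of 2 in the shRBM39 IP, where KCNQ1OT1 was added. The share of all features called lower moved the same way, from 11.3% to 9.69% in shControl and from 9.00% to 11.3% in shRBM39 cells. The shift between the IPs and all intervals under total counts were added after the data were seen. With no filter beyond 1 count, NEAT1 was lost in both cultures, so that 5 in place of 6 and 1 in place of 2 members were called lower in the shControl and shRBM39 IPs, and 2 in place of 1 were higher in the difference, HULC (1.02) being added. Of all 33840 features so kept, 9.31% and 6.63% were called lower in these IPs and 3.57% higher in the difference. With at least 10 counts in each of the 4 libraries, which drops PVT1, 0 were called in the difference and 0 in the input. With counts divided by 2 before the interval, 0 were called in the input, where 3.58% of all features were called lower. Under the same setting 5 in place of 9 of the 12 nuclear minus cytoplasmic differences excluded 0. Without the culture term edgeR called 0 in place of 7 members. No library could be left out, because each group has 1, and the labels carry no replicate numbers; the paired analysis is the test with the culture term, which pairs each IP with its own input. Depth limits PVT1 and HULC: halved counts let the interval of HULC include 0 for IP over input in shRBM39 cells (-1.12 to 0.04), in the input (-1.05 to 0.09) and between the IPs (-0.06 to 1.11).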

Other observations

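The balance between the 2 nuclear RNAs made from neighbouring genes on chromosome 11, MALAT1 and NEAT1, was close in 3 libraries and apart in the fourth. For each count of NEAT1 there were 21.4 of MALAT1 in the shControl input and 22.9 in its IP, and 23.1 in the shRBM39 input and 34.0 in its IP. Counts of OIP5-AS1 for each count of NORAD were 0.114 in both inputs, and 0.0622 and 0.0656 in the shControl and shRBM39 IPs. Both IPs thus lay below both inputs. These ratios do not depend on library scaling.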
